A study of Mus musculus with 2 samples.

Results

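The miR-181 family of the mouse consists of 6 microRNA (miRNA) hairpins, Mir181a-1, Mir181b-1, Mir181a-2, Mir181b-2, Mir181c and Mir181d. The members were taken by gene symbol, through their Ensembl identifiers, and are 6 of the 1973 miRNA genes in the deposited tables. They were measured by microRNA sequencing of whole hindbrain from B6NCrl mouse embryos, sexes pooled, at embryonic day 12.5 (E12.5). The study has 2 libraries in 1 group, numbered as biological replicates, with tissue pooled from 120 embryos in replicate 1 and 88 embryos in replicate 2. The embryos are labelled healthy, and no treatment, transgene or mutation is named. Because there is 1 condition, the data give levels, their spread between the libraries, and the comparison of the Mir181c/Mir181d locus with the miR-181a/miR-181b loci.

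A miRNA gene is transcribed as a longer RNA that folds into a hairpin, and enzymes cut a small RNA from each arm of it, named 5p and 3p after the end of the hairpin on which it lies. One of them is usually loaded into the silencing complex, where its seed, bases 2 to 8, pairs with target messenger RNAs and lowers their output. The miR-181 family is known from brain and retina, where it acts in neurons, and from developing T cells, where miR-181a tunes the sensitivity of the T cell receptor. In mammals the family lies in pairs of hairpins, each pair generally transcribed together.

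The mature sequences show what the counts can and cannot separate. All 6 members had both arms in the RefSeq table (build GRCm38.p6), giving 10 distinct sequences at 12 positions. The 5p arms are given first, 5′ to 3′, with the seed in capitals.
miR-181a-5p: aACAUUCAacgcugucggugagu
miR-181b-5p: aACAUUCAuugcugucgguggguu
miR-181c-5p: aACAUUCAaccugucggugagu
miR-181d-5p: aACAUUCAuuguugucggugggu
All 4 share the seed ACAUUCA, and no gene outside the family in that table has a mature miRNA with it. From the 5′ end of miR-181b-5p, miR-181d-5p carries C12U and is 1 base shorter. miR-181c-5p is 1 edit (a missing base) from miR-181a-5p, so miR-181c pairs in sequence with miR-181a, and miR-181d with miR-181b.

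The 3p arms are the part by which copies at different loci differ, and they follow with the seed in capitals.
miR-181a-1-3p: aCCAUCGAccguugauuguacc
miR-181c-3p: aCCAUCGAccguugaguggacc
miR-181a-2-3p: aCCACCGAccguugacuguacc
miR-181b-1-3p: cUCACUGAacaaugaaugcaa
miR-181b-2-3p: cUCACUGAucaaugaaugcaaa
miR-181d-3p: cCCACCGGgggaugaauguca
In place of the 1 seed of the 5p arms they have 4. Mir181a-1 and Mir181c share CCAUCGA, the miR-181b hairpins share UCACUGA, and Mir181a-2 and Mir181d each have their own. Counted from the 5′ end of miR-181a-1-3p, miR-181a-2-3p carries U5C and U16C, the first of them inside the seed. None of these 4 seeds occurs in a mature miRNA outside the family in the RefSeq table.

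The 5p arm of miR-181a lies unchanged in 2 hairpins, Mir181a-1 and Mir181a-2, and that of miR-181b in Mir181b-1 and Mir181b-2. Each 3p arm, and each arm of Mir181c and Mir181d, lies in 1 hairpin only, by exact search of all GENCODE M21 miRNA hairpins. The surroundings of the repeated arms, with up to 8 bases on either side and the arm in capitals, show where the copies part.
Mir181a-1: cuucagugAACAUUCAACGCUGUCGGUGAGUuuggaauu
Mir181a-2: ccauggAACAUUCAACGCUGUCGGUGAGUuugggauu
Mir181b-1: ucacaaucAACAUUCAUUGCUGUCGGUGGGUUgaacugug
Mir181b-2: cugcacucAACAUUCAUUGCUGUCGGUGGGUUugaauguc
These lie on the plus strand of GRCm38 at chr1:137966460-137966498, chr2:38852735-38852771, chr1:137966642-137966681 and chr2:38853837-38853876, in that order. The miR-181a copies agree for 4 bases beyond the arm and 1 base before it, an identical run of 28 bases. The miR-181b copies agree for 2 bases before the arm and part right after it, where Mir181b-1 has G and Mir181b-2 has U. A read from the first base of the arm must therefore be 28 bases long to place miR-181a, and 25 bases long to place miR-181b. The tables keep reads that match several positions in a row of their own, and the labels give a size range under 30. Reads of the exact miR-181a-5p and miR-181b-5p arms are therefore in no gene's count. How far the counts of the miR-181a and miR-181b hairpins come from 3p arms or from longer or shifted 5p reads was not tested, since the tables sum all reads of a hairpin.

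The 3 loci lie on different chromosomes. Mir181a-1 (ENSMUSG00000065565.1, chr1:137966455-137966541, plus strand) and Mir181b-1 (ENSMUSG00000065458.1, chr1:137966639-137966718, plus strand) are 97 bases apart, in an intron of the noncoding gene Gm4258 on the same strand. Mir181b-1 also overlaps an exon of the noncoding gene A430106G13Rik on that strand. This gene starts at chr1:137966531, inside the Mir181a-1 hairpin. Mir181a-2 (ENSMUSG00000065423.1, chr2:38852735-38852810, plus strand) and Mir181b-2 (ENSMUSG00000065578.1, chr2:38853830-38853918, plus strand) are 1019 bases apart, inside an intron of the nuclear receptor gene Nr6a1 but on the opposite strand. Mir181c (ENSMUSG00000065483.1 in the tables, chr8:84178873-84178961 in M21, minus strand) and Mir181d (ENSMUSG00000076338.1, chr8:84178716-84178787, minus strand) are 85 bases apart. The annotation places both in an intron of Nanos3, a gene known from germ cells, on the same strand. M21 lists Mir181c under a later identifier version than the tables, so the counted interval may differ from the one given.

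**Figure D1:**
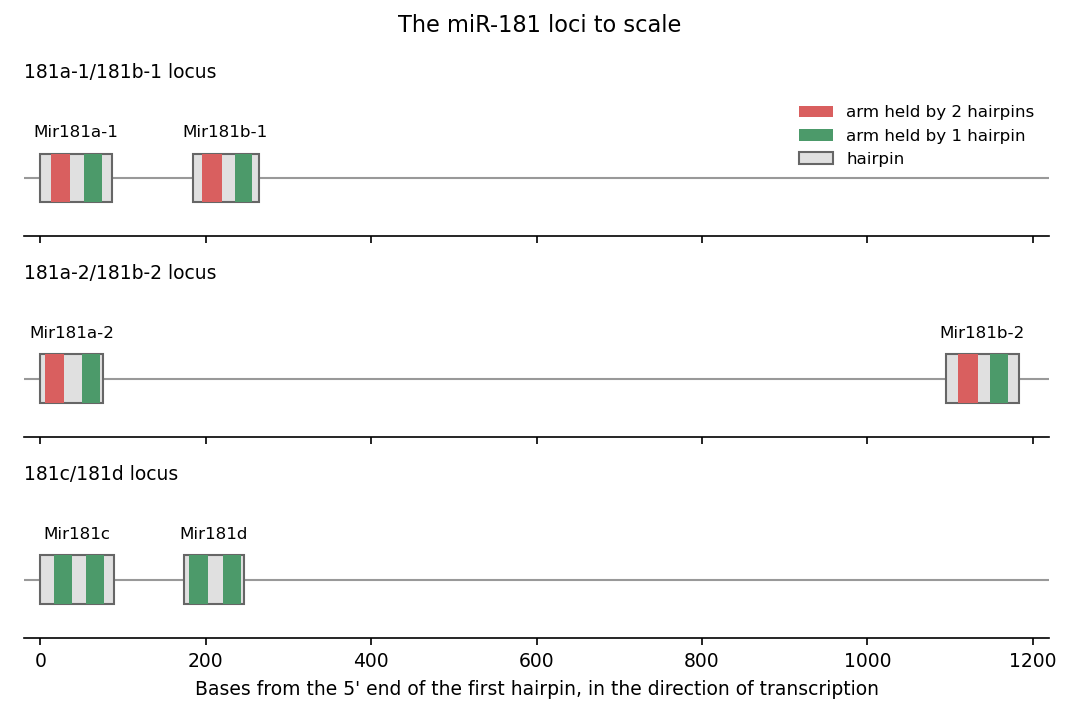
The 3 miR-181 loci drawn to scale, with bases from the 5′ end of the first hairpin on the x axis, hairpins as grey boxes and mature arms coloured by the number of M21 hairpins that hold them. The 5p arms of all 4 hairpins of miR-181a and miR-181b are held by 2 hairpins, whereas every arm of Mir181c and Mir181d is held by 1, and the Mir181a-2/Mir181b-2 pair is the widest, with 1019 bases between its hairpins.

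The libraries held 2764276 (replicate 1) and 3946444 (replicate 2) counts on the gene's own strand, a reading taken from the layout of the tables. Levels are counts per 1000000 of these (CPM), with mean ± SD over the libraries (n = 2). A count of 0 allows up to 1.09 and 0.760 CPM, and intervals and floors cover counting error only. Of 10 markers listed for hindbrain and neural tissue, 6 were detected. The Hox cluster miRNA Mir10a, a marker of posterior neural identity, had 26347 and 25880 CPM, and Mir137, a neuronal miRNA, had 3263 and 3342 CPM. By contrast, Mir124a-1, Mir124a-2 and Mir124a-3, which mark neurons and have copies at several loci, were at 10.5 CPM or less in each library. Of the rest of the list, Mir10b had 15998 and 14531 CPM, Mir153 1316 and 1614 CPM, Mir9-3 367 and 398 CPM, and Mir9-2 2.53 and 1.77 CPM. Mir9-1 was not matched. Among other cell types, the leukocyte list (3 of 5 markers detected) summed to 520 and 432 CPM on the gene's strand. Its Mir142b was at 0 on that strand, with 364 and 344 CPM opposite to it, and Mir142 was not matched. The endothelial Mir126a had 25987 and 23442 CPM, and the 2 erythroid markers summed to 277 and 340 CPM. In whole tissue, more cells of a type and more RNA per cell cannot be told apart.

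Together the 6 hairpins held 2.68% ± 0.110 of all assigned counts, although they are 0.304% of the genes. Replicate 1 had 72072 family counts, or 2.61% (exact Clopper-Pearson 95% interval 2.59% to 2.63%). Replicate 2 had 109013, or 2.76% (2.75% to 2.78%). All 6 were detected, meaning at least 10 counts in each library, against 371 of all 1973 genes. The opposite strand of the 6 hairpins had 0 counts in both libraries, while over all genes 2.38% and 2.35% of the counts were on it. The median level of the 6 was 3560 CPM, against 183 CPM over the 371 detected genes. Leukocytes, another known site of miR-181, had a summed marker level equal to 1.99% and 1.56% of that of the family, or 3.39% and 2.81% with the reads opposite to Mir142b. On the same scale the endothelial Mir126a alone came to 99.7% and 84.9%, so such a percent does not measure a cell type's share of miR-181. The part of either cell type in the family's level was not tested.

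Mir181c, from the third locus, was the most abundant member. It had 27743 counts or 10036 CPM in replicate 1 and 42581 counts or 10790 CPM in replicate 2, ranking 26 and 21 among all genes. Its neighbour Mir181d had 24089 counts or 8714 CPM and 33374 counts or 8457 CPM, ranking 29 and 28. Both values of Mir181c lay above both values of Mir181d. The ratio of their counts was 1.15 in replicate 1 and 1.28 in replicate 2, the smallest imbalance of the 3 pairs. Per base of the annotated hairpin, 89 bases for Mir181c and 72 for Mir181d, the ratio was 0.932 and 1.03. Small RNAs are cut from the arms, however, of 22 bases in Mir181c and of 23 and 21 in Mir181d. Hairpin length is therefore no measure of how many reads a hairpin gives, and the order is given for read number.

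Mir181b-2 and Mir181a-1, from different loci, came next at nearly the same CPM. Mir181b-2 had 9293 counts or 3362 CPM in replicate 1 and 15899 counts or 4029 CPM in replicate 2. Mir181a-1 had 9046 counts or 3272 CPM and 14123 counts or 3579 CPM. Mir181b-2 was the higher inside each library, with ratios to Mir181a-1 of 1.03 and 1.13. Their counting intervals overlapped in replicate 1 and not in replicate 2, and their values overlapped across the libraries. Mir181d exceeded Mir181b-2 by 2.59-fold and 2.10-fold with no overlap.

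Mir181a-2 and Mir181b-1 were the low members. Mir181a-2 had 1821 counts or 659 CPM in replicate 1 and 2803 counts or 710 CPM in replicate 2. Mir181b-1 had 80 counts or 28.9 CPM and 233 counts or 59.0 CPM. Mir181a-1 stood above Mir181a-2, and Mir181a-2 above Mir181b-1, in both libraries without overlap, the latter by 22.8-fold and 12.0-fold. Between the highest and the lowest member the mean levels ran from 10413 ± 533 to 44.0 ± 21.3 CPM.

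**Figure D2:**
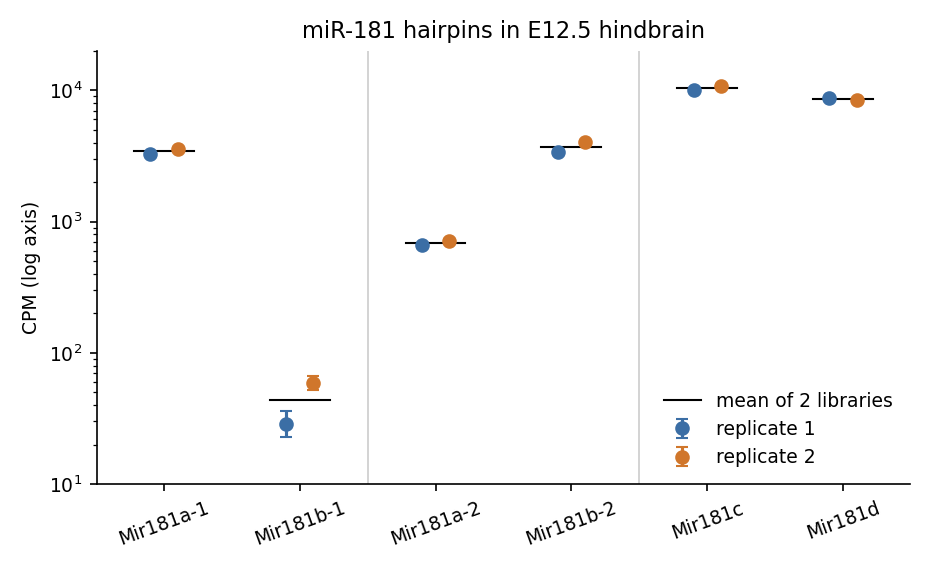
CPM of each miR-181 hairpin on a log axis, grouped by locus, with a point for each library, its exact 95% counting interval as the bar and the mean as a line. Mir181c and Mir181d lie between 8457 and 10790 CPM, Mir181a-1 and Mir181b-2 between 3272 and 4029 CPM, and Mir181b-1 is lowest at 28.9 and 59.0 CPM.

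The Mir181c/Mir181d locus carried most of the family's uniquely placed reads. Its hairpins had 51832 counts or 18751 CPM in replicate 1 and 75955 counts or 19246 CPM in replicate 2. The Mir181a-2/Mir181b-2 locus had 4021 and 4739 CPM and the Mir181a-1/Mir181b-1 locus 3301 and 3638 CPM. The levels of the 3 loci did not overlap over the libraries. As a share of the family, the Mir181c/Mir181d locus held 71.9% (exact Clopper-Pearson 95% interval 71.6% to 72.2%) in replicate 1 and 69.7% (69.4% to 69.9%) in replicate 2. The Mir181a-2/Mir181b-2 locus held 15.4% and 17.2%, and the Mir181a-1/Mir181b-1 locus 12.7% and 13.2%.

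The Mir181c/Mir181d locus exceeded the Mir181a-1/Mir181b-1 locus by 5.68-fold and 5.29-fold in replicates 1 and 2, and the Mir181a-2/Mir181b-2 locus by 4.66-fold and 4.06-fold. Over both miR-181a/miR-181b loci together it was higher by 2.56-fold and 2.30-fold. Both libraries showed this direction, and with 2 libraries the smallest p of an exact sign-flip test (two-sided) is 0.5, so no test was made. The paired sequences gave like values: Mir181c exceeded the sum of both miR-181a hairpins by 2.55-fold and 2.52-fold, and Mir181d that of both miR-181b hairpins by 2.57-fold and 2.07-fold.

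These ratios compare loci of unequal readability, since Mir181c and Mir181d can be counted by both arms and the other hairpins lack their exact 5p reads. The rows for reads that match several positions held 1947238 reads in replicate 1 and 2890679 in replicate 2, which is 27.0 and 26.5 times the counts of the family. The lead of the Mir181c/Mir181d locus over both miR-181a/miR-181b loci was 31592 and 42897 counts, equal to 1.62% and 1.48% of those reads. How many of those reads belong to miR-181a-5p or miR-181b-5p cannot be read from the tables. The order of the loci therefore describes reads placed at a single position, and the total of each miRNA was not measured.

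**Figure D3:**
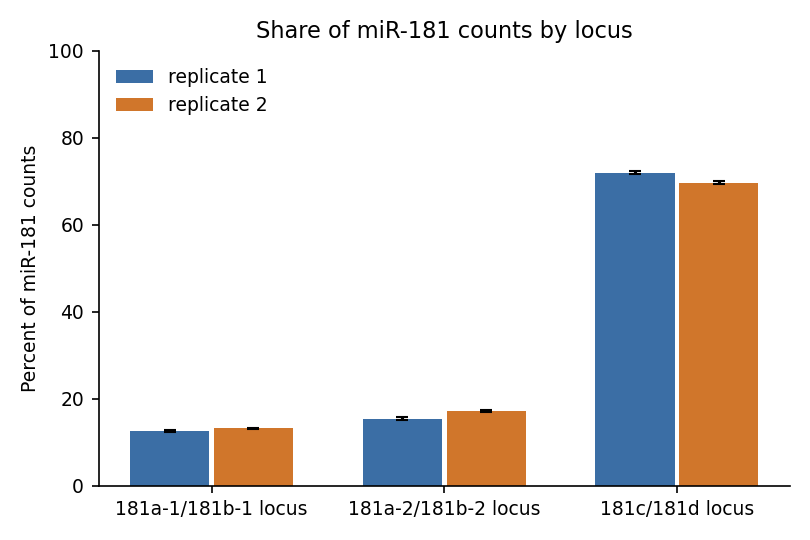
Percent of the counts of the 6 miR-181 hairpins that fell on each locus, with a bar for each library and exact Clopper-Pearson 95% intervals. The Mir181c/Mir181d locus holds 71.9% and 69.7%, and each miR-181a/miR-181b locus between 12.7% and 17.2%.

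In uniquely placed hairpin reads, which leave out the exact 5p arms, the leading hairpin was a miR-181a hairpin at 1 of the 2 loci and a miR-181b hairpin at the other. At the Mir181a-1/Mir181b-1 locus Mir181a-1 had 112-fold the counts of Mir181b-1 in replicate 1 and 60.5-fold in replicate 2. At the Mir181a-2/Mir181b-2 locus Mir181b-2 had 5.10-fold and 5.67-fold the counts of Mir181a-2. Across loci, Mir181a-1 exceeded Mir181a-2 by 4.97-fold and 5.04-fold, a ratio that differed little between the libraries. Mir181b-2 exceeded Mir181b-1 by 115-fold and 68.1-fold. These are read numbers, which carry the ligation preferences of small RNA libraries for each sequence. The base after the miR-181b-5p arm differs between its copies, as printed above, and its part in their ratio was not tested.

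Other miRNAs with copies at several loci give the scale of such imbalances. A list of 48 hairpins of this kind, chosen with earlier results of these data known, had 45 in the tables and 34 detected, with a median of 150 CPM among those detected. Its highest members were Mir92-1, of the growth-promoting miR-17-92 cluster (5556 and 4209 CPM), Mir219a-2, known from oligodendrocytes (4953 and 3247 CPM), Mir16-1, of a family that restrains the cell cycle (2341 and 2687 CPM), and Mir125b-1 (2150 and 1996 CPM). Both copies were detected for 15 pairs of the list, and the larger copy exceeded the smaller by a median of 2.30-fold and 3.45-fold in replicates 1 and 2, respectively. The ranges were 1.24-fold to 13.9-fold and 1.40-fold to 17.7-fold. The miR-181a ratio lay inside these ranges. The detection minimum caps the ratio a pair can show, because its smaller copy must have at least 10 counts. In replicate 1, 11 of the 15 pairs had too few counts in the larger copy to reach the miR-181b ratio. The 4 pairs that could reach it in both libraries, Mir125b, Mir16, Mir219a and Mir92, had ratios between 1.60 and 16.5. Each miR-181b hairpin has its own 3p arm, whereas every arm that RefSeq lists for Mir219a-2 also lies in another hairpin. Mir219a-2 still had 13691 and 12815 counts in replicates 1 and 2. Whether RefSeq lists both of its arms was not checked, so how alike Mir219a is to miR-181b is not settled. Mir194, with 1 copy under the detection minimum, is not among the 15 and had ratios of 379 and 55.9, the first against a copy at 0 counts and so dependent on the 0.5 added to each count.

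**Figure D4:**
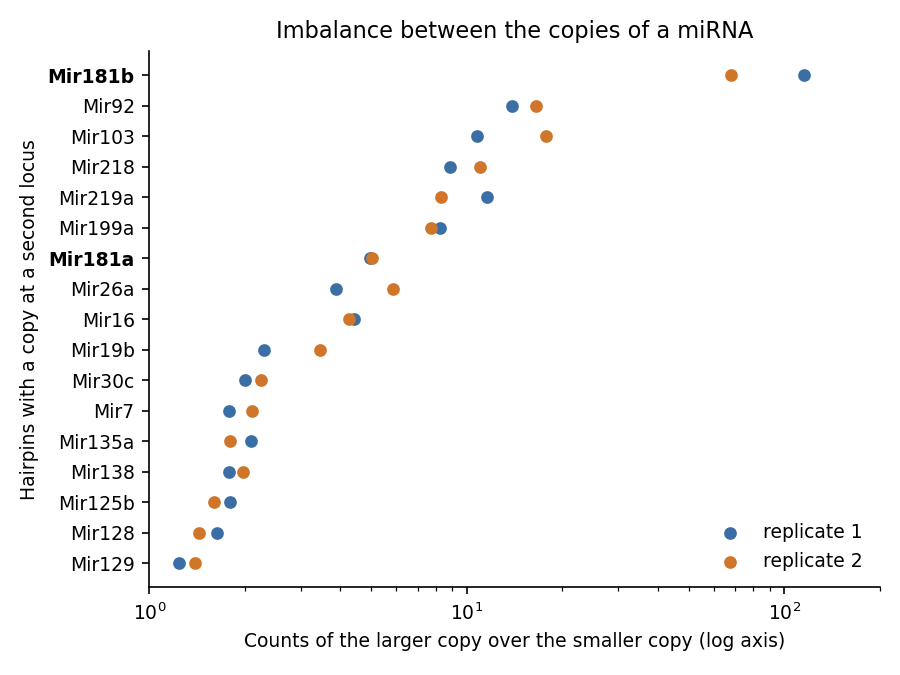
Ratio of counts of the larger to the smaller copy (log axis) for miRNAs with hairpins at separate loci and both copies detected, with a point for each library. Mir181b lies at 115 and 68.1, a ratio that 11 of the 15 other pairs had too few counts to reach in replicate 1, and Mir181a at 4.97 and 5.04.

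The members were set beside genes of the same kind of arms, by the arms RefSeq lists and in classes that hold the members too. Of 916 genes in the tables matched by symbol to RefSeq mature sequences, 56 had some but not all arms in another hairpin, as the 4 hairpins of miR-181a and miR-181b do, and 37 of these were detected, with a median of 152 CPM. Another 813 had no arm in another M21 hairpin, as Mir181c and Mir181d do, and 289 were detected, with a median of 213 CPM. The search can miss copies, since a hairpin of the multi-copy list with 0 counts in both libraries falls in this class. Mir181a-1, Mir181a-2 and Mir181b-2 were above the upper quartile of 456 CPM of their class, and Mir181b-1 was below its median. Mir181c and Mir181d were above the upper quartile of 1534 CPM of theirs.

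Between the libraries, Mir181b-1 was the 1 member that differed by 2-fold or more. Each of 393 genes averaging 10 counts or more was tested with a two-sided exact binomial test and Benjamini-Hochberg adjustment over all of them. A call needed an adjusted p under 0.05 together with a difference of 2-fold or more. This compares the reads of 2 libraries of the same kind, not conditions. Over all genes 3.56% were called, 2.29% as higher and 1.27% as lower in replicate 2. Of the 6 hairpins 1 was called, Mir181b-1, at 2.03-fold higher in replicate 2 (adjusted exact p = 3.82e-08). It passed the fold minimum narrowly, and the nearest member outside it was Mir181b-2, at 1.20-fold.

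The other members differed by less than the 2-fold minimum. On the log2 scale, replicate 2 over replicate 1 was 0.26 for Mir181b-2, 0.13 for Mir181a-1, 0.11 for Mir181a-2, 0.10 for Mir181c and -0.04 for Mir181d. The median absolute log2 ratio was 0.12 for the 6 hairpins, 0.24 for all 393 genes and 0.17 for the 105 genes of at least 1000 CPM. At a mean CPM of 10 to under 100, the level of Mir181b-1, 5 of 92 genes were called. Without the fold minimum all 6 hairpins were called by the exact binomial test, 5 higher and Mir181d lower in replicate 2, beside 51.7% of all genes. With DESeq2 size factors in that binomial test Mir181d lost the call (log2 ratio -0.01, adjusted exact p = 0.557).

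A test that allows for spread between libraries called no member, but its spread comes from the same 2 libraries, treated as 1 group, so it is not independent of the differences it tests. The biological coefficient of variation from the common dispersion of edgeR was 17.4%, and edgeR's negative binomial exact test with it called 2 of 393 genes. At an unadjusted p under 0.05 it found 17 of the 393 genes, a share below that threshold, among them Mir181b-1 (exact p = 0.0130, adjusted p = 0.534). Some markers of other tissues also differed between the libraries. The skeletal muscle markers summed to 152 and 592 CPM, most of it from Mir206 (146 and 579 CPM) and little from Mir133b (5.43 and 13.4 CPM). The epithelial markers Mir200c and Mir429 summed to 4909 and 2108 CPM. Other epithelial miRNAs, named after their values were seen, were mixed. Mir200b had 866 and 468 CPM and Mir141 238 and 136 CPM, lower in replicate 2 like Mir200c and Mir429. Mir200a had 146 and 143 CPM, Mir203 2230 and 2155 CPM, and Mir205 1271 and 1459 CPM. Their part in the difference of Mir181b-1 was not tested.

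**Figure D5:**
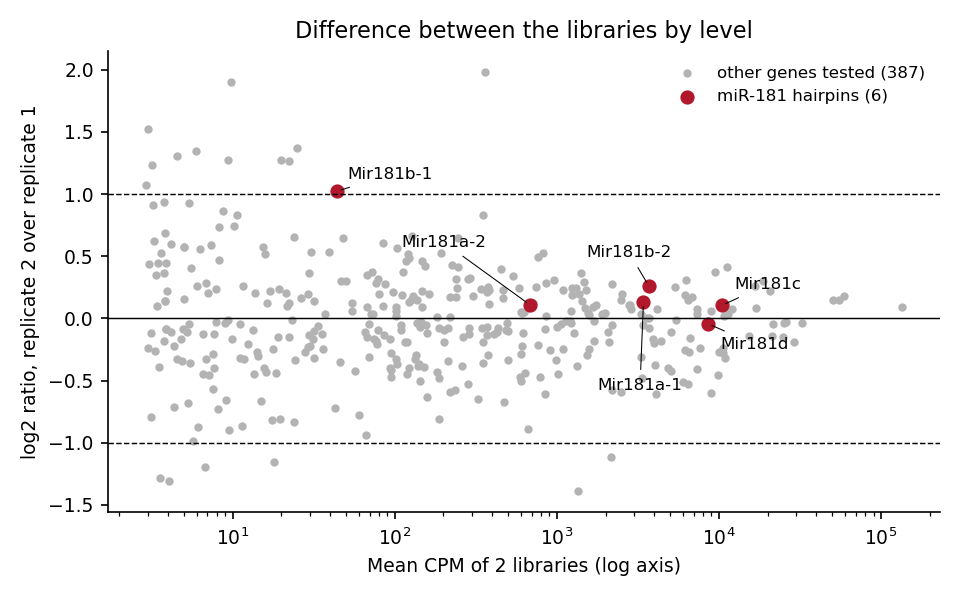
log2 ratio of replicate 2 over replicate 1 against mean CPM (log axis) for the 393 genes tested, with the 6 miR-181 hairpins in red and dashed lines at 2-fold. Mir181b-1 lies just past the upper dashed line at 44.0 CPM, and the other members lie between -0.04 and 0.26.

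For each member the gene nearest in level was found by the distance of log2 CPM over the 2 libraries. Mir181c was nearest to Mir106b, a relative of the miR-17-92 cluster (10624 and 10794 CPM), and Mir181d to Mir130b (8743 and 9112 CPM). Mir181a-1 was nearest to the neuronal Mir137 (3263 and 3342 CPM), and Mir181b-2 to Mir351 (3688 and 3689 CPM). Mir181a-2 was nearest to Mir340 (643 and 697 CPM), and Mir181b-1 to Mir675, from the imprinted H19 gene (37.3 and 58.5 CPM). The distances ran from 0.04 for Mir340 to 0.36 for Mir675 on the log2 scale. With 2 libraries this is a likeness of level, and no pattern across conditions can be compared.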

How the data were processed

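The authors deposited a table of raw read counts for each library, counted over miRNA genes of GENCODE M4 after alignment to mm10, as a text file beside each table states. Not given in the sources used here: the aligner, the trimming and the versions. The third column was read as the gene's own strand, from the layout and because it holds nearly all counts. Totals exclude the rows without a gene name: in replicates 1 and 2 they held 15.7% and 16.2% of 5947846 and 8656439 reads as unmapped, 32.7% and 33.4% as matching several positions, and 5.12% and 4.81% as outside miRNA genes on that strand. Beyond the replicate labels and the different pool sizes, 120 and 88 embryos, nothing says that the pools were independent. How much of the spread is technical was not tested.

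CPM was computed over all gene rows. Identifiers, without versions, were matched to GENCODE M21 (GRCm38, the assembly of mm10), giving symbols for 1894 of 1973. Ratios had 0.5 added to each count. Mature arms came from RefSeq and were searched in M21 hairpins. No genome was used. Tools were Python 3.11.15, SciPy 1.17.1, pandas 2.3.3, R 4.3.3, edgeR 4.0.16 and DESeq2 1.42.0 (size factors only). The binomial test was tried on simulated counts with counting error only, which cannot show how it behaves with spread between libraries. The members and lists were chosen with earlier results of these data known. Named genes are the members, the gene nearest in level to each, and the 4 highest of the multi-copy list; others (markers and Mir194) were named after their values were seen. Alternatives were the strand column, denominators, scalings, count and fold minimums, the test, the value added to counts, and leaving out each library.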

Additional observations from a re-analysis of the deposited data

How the results depend on the processing

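The share of the family was 3.10% without Mir99a, the most abundant gene, in the total, 2.06% without genes that share a 20-base run (which removes the 4 hairpins of miR-181a and miR-181b), and 1.24% over all reads. It ran from 2.61% to 2.76% when each library was left out. The ratio of the Mir181c/Mir181d locus to the Mir181a-1/Mir181b-1 locus ran from 5.29 to 5.68 and that to the Mir181a-2/Mir181b-2 locus from 4.06 to 4.66. A scale chosen after seeing the data, counts per hairpin base, does not suit reads cut from the arms. On it the ratio to the Mir181a-1/Mir181b-1 locus was 5.93. That of Mir181b-2 to Mir181a-2 was 4.60 and that of Mir181c to Mir181d was 0.982. The ratio of Mir181a-1 to Mir181b-1 was 60.5 without replicate 1 and 112 without replicate 2. Over all genes, the calls between the libraries numbered 14, against 4 among genes averaging 100 counts or more, 203 with no minimum fold and 2 by the exact test of edgeR. Of the members, 1 was called, 6 with no minimum fold and 0 by edgeR's exact test. Mir181b-1 was that member under the other count minimums, scalings and strand column tried. With DESeq2 size factors the log2 ratio of Mir181d was -0.01 and its call without a minimum fold was lost (adjusted exact p = 0.557). No paired analysis was possible because the series has 1 group. Depth limits Mir181b-1 most, with 80 counts in replicate 1.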
